A study of Mus musculus with 8 samples.

Results

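The alpha cell nuclei of cultured mouse islets are 6 of the 54 columns of the deposited table, those whose name ends in the label for pancreatic A cells, 1 for each condition. Islets came from wild type (WT) mice and from mice that carry the Med14 S983A substitution in the whole body (Med14S983A). They were left untreated (CON), exposed to 10 nM Exendin-4 (Ex-4), a GLP-1 receptor agonist, for 16 hours, or exposed to forskolin (FSK), an activator of adenylyl cyclase, whose dose and time are not in the labels. Nuclei were barcoded in wells assigned to conditions, and each of the 8 sublibraries holds all 6 conditions. The authors summed the nuclei of a cell type in a condition, so each value stands alone. There is no replicate, no test could be made, and genotype or treatment cannot be told apart from the islet preparation and the wells. The numbers, ages and sexes of the mice and the numbers of nuclei per column are not given in the sources used here.

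Alpha cells secrete glucagon when blood glucose is low, after amino acid rich meals and under adrenergic drive. Glucagon is cut from a precursor, proglucagon, by the convertase Pcsk2. The homeobox factors Irx1 and Irx2 mark alpha cells in mouse islets, while PP cells, which secrete pancreatic polypeptide, share much of their expression with them. Med14 is the backbone subunit of Mediator, which links transcription factors to RNA polymerase II.

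The 6 alpha columns held 269394 to 810127 counts, and 10892 to 15009 genes had a count in them. Levels are given as counts per 10000 of the column (CP10K), not scaled to gene length, so that levels are compared between columns and not between genes. 1 count was worth 0.0123 to 0.0371 CP10K. Intervals are exact 95% Poisson intervals, which cover counting error only. Differences are differences of log2(CP10K + 1), and the limit for calling a gene higher or lower is 1.5-fold, which is 0.58. *Med14* itself was at 0.835 CP10K in the WT-CON and 0.630 in the Med14S983A-CON alpha column, which does not check a point substitution.

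*Gcg*, which encodes proglucagon, separated the alpha columns from every other cell type. It was at 85.8 CP10K (83.1 to 88.7) in WT-CON, 35.2 (34.0 to 36.6) in Med14S983A-CON, 114.8 (110.8 to 118.9) in WT-FSK, 92.9 (90.8 to 95.1) in Med14S983A-FSK, 34.1 (32.4 to 35.8) in WT-Ex-4 and 33.8 (32.5 to 35.1) in Med14S983A-Ex-4. The untreated WT column and both FSK columns were thus high, and the untreated mutant and both Ex-4 columns were low and overlapped within counting error. The highest other column of at least 20000 counts was endothelial in WT-CON, at 2.53 CP10K, and macrophage in Med14S983A-CON, at 3.65 CP10K, so that alpha nuclei stood 33.9-fold and 9.66-fold above them.

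Of the other markers given for alpha cells, *Irx1* and *Irx2* also stood above all other types, and *Ttr* and *Gc* did not. *Irx1* was at 0.572 CP10K in WT-CON, 0.913 in Med14S983A-CON, 1.22 and 1.21 in WT-FSK and Med14S983A-FSK, and 1.09 and 0.466 in WT-Ex-4 and Med14S983A-Ex-4. No count of *Irx1* was found in any other WT-CON column, and its highest level elsewhere in Med14S983A-CON was 0.0353 CP10K, in delta cells. *Irx2* was at 0.954 CP10K in WT-CON and 1.27 in Med14S983A-CON, and its highest other levels were 0.161 in PP and 0.215 in macrophage columns. *Ttr*, which encodes the thyroid hormone carrier transthyretin, was at 4.17 CP10K in WT-CON against 1.19 in beta cells, but at 1.07 in Med14S983A-CON against 0.858 in macrophages, a difference of 0.16. The macrophage value rested on 4 counts. Beta cells of Med14S983A-CON were at 0.447 CP10K, a difference of 0.52, which was also short of the limit. *Gc*, which encodes the vitamin D binding protein, did not stand above PP nuclei. It was at 0.644 CP10K in WT-CON and 0.383 in Med14S983A-CON alpha nuclei, against 0.804 and 0.626 CP10K in PP nuclei. The PP values rested on 5 and 8 counts, too few to say which type held more.

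**Figure D1:**
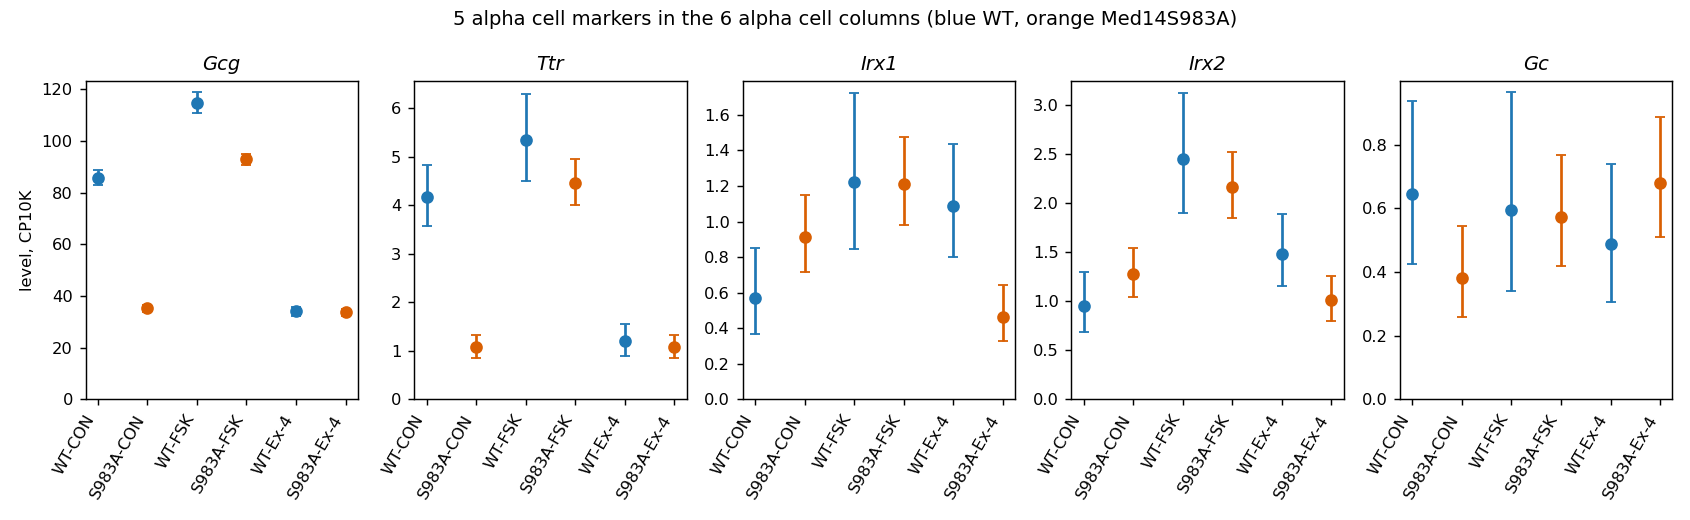
Levels of *Gcg*, *Ttr*, *Irx1*, *Irx2* and *Gc* (CP10K, linear axes from 0) in the 6 alpha cell columns, WT in blue and Med14S983A in orange, with exact 95% Poisson intervals of the counts as bars. *Gcg* and *Ttr* are high in WT-CON and both FSK columns, whereas the intervals of *Gc* overlap in all 6.

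A gene was taken as an alpha gene when its level exceeded that of each other cell type 1.5-fold in both WT-CON and Med14S983A-CON. Other types counted where their column held 20000 counts or more, which left out the ductal column in both conditions and the neuron column in WT-CON. 22 of 12543 genes (0.175%) were higher in this sense and 2 (0.0159%) were lower. With counting intervals also apart 15 and 0 remained, without *Zcchc18*, *Irx1*, *Irx2*, *Cryba2*, *Ppp2r2b*, *Csmd2* and *Nlgn2* among the higher ones. *Irx2* and *Cryba2* were compared in WT-CON with 1 and 2 counts in PP nuclei. The cell types were drawn by the authors from these same nuclei, so the 22 genes are a description and were not tested. Just inside the limit were *Dock11* (smaller difference 0.59), *Pappa2* (0.60) and *Nlgn2* (0.62), and just outside it *Cit* (0.55), *Sphkap* (0.54) and *Pdk4* (0.51).

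PP cells were the nearest neighbour. In WT-CON the highest other type was PP for 13 of the 22 genes, beta for 7, delta for 1 and endothelial for 1, and in Med14S983A-CON it was PP for 9, beta for 3, delta for 4 and another type for 6. Against single types, 78 genes were higher in alpha than in PP nuclei (0.622%) and 114 lower (0.909%). Against beta cells 187 were higher (1.49%) and 251 lower (2%), and against delta cells 152 were higher (1.21%) and 241 lower (1.92%). The PP columns are shallower than the beta and delta columns, and the part of depth in these counts was not tested.

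By the smaller of their differences in both conditions from the highest other type, *Gcg* (2.96) was followed by *Wnk3* (1.57), *Map3k15* (1.48), *Ptprd* (1.25), *Slc7a2* (1.25) and *Rragb* (1.10). The genes are given here by role and not in that order, and the roles were grouped after the values were seen. *Wnk3* encodes a kinase that regulates cation chloride cotransporters. It was at 11.5 CP10K in WT-CON and 5.90 in Med14S983A-CON, against 1.13 and 1.33 in PP cells. *Map3k15*, which encodes a MAP kinase kinase kinase, was at 15.7 and 12.2 CP10K against 4.53 and 3.73 in delta cells. *Slc7a2*, the gene of a transporter of cationic amino acids such as arginine, was at 24.9 and 8.67 CP10K against 5.95 in PP cells of WT-CON and 3.07 in neurons of Med14S983A-CON. *Slc38a4*, which encodes a transporter of neutral amino acids, was at 3.70 and 2.35 CP10K against 1.30 and 0.888 in beta cells. *Rragb*, whose product is a Rag GTPase that passes amino acid signals to mTORC1 at the lysosome, was at 8.23 and 3.81 CP10K against 1.77 and 1.25 in PP cells. In a list of 19 genes of amino acid transport and use, which held both transporters and not *Rragb*, no other member stood above all types.

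Some of the 22 genes encode adhesion or synapse proteins. *Nxph1* encodes neurexophilin, a secreted ligand of neurexins. It was at 34.7 CP10K in WT-CON and 4.65 in Med14S983A-CON, against 4.66 and 1.88 in PP cells. The shallow WT-CON neuron column, which was not among the types counted, held 22.2 CP10K of *Nxph1* (20 counts). *Nlgn2*, the gene of the neurexin ligand neuroligin 2, was at 1.81 and 2.69 CP10K against 0.823 and 1.41 in beta cells. *Ptprd*, a receptor tyrosine phosphatase gene, was at 21.8 and 10.0 CP10K against 5.58 in beta cells and 3.63 in neurons. In the shallow WT-CON neuron column, with 13 counts of the gene, *Ptprd* was at 14.5 CP10K, so that alpha nuclei were above it by 0.56, short of the limit. *Igsf21*, which encodes an immunoglobulin family synaptic protein, was at 10.5 and 5.09 CP10K against 2.89 and 2.66 in PP cells. *Csmd2*, which encodes a large transmembrane protein with CUB and sushi domains, was at 7.06 and 3.79 CP10K against 3.25 in beta cells and 1.95 in neurons. In a list of 30 adhesion and guidance genes only *Ptprd* and *Nlgn2* stood above all other types, and *Nxph1*, *Igsf21* and *Csmd2* were not on that list.

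The remaining alpha genes had varied roles. *Fmn2*, which encodes an actin nucleating formin, was at 18.4 and 9.68 CP10K in WT-CON and Med14S983A-CON, *Pappa2*, a protease of IGF binding proteins, at 27.8 and 7.90, and *Dock11*, a guanine nucleotide exchange factor gene, at 17.3 and 5.33. *Adamts18*, a secreted metalloprotease gene, was at 8.35 and 3.07 CP10K, *Mamld1*, a gene of the mastermind-like family, at 9.23 and 2.97, and *Slc39a11*, a zinc transporter gene, at 10.3 and 5.47. *Ppp2r2b*, which encodes a regulatory subunit of protein phosphatase 2A, was at 14.0 and 3.42 CP10K. Of the short genes, *Cryba2*, of the crystallin family, was at 1.17 and 2.42 CP10K, and *Zcchc18*, a zinc knuckle gene, at 1.38 and 2.21.

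The 2 genes that were lower were *Sh3pxd2a*, which encodes a scaffold of podosomes, and *Tet3*, which encodes a dioxygenase of methylated cytosine. *Sh3pxd2a* was at 0.882 and 0.691 CP10K in WT-CON and Med14S983A-CON alpha nuclei, whereas the lowest other type, macrophages, held 2.16 and 1.93 and beta cells held 9.24 and 6.35. *Tet3* was at 0.405 and 0.555 CP10K against 1.13 in PP and 1.54 in delta cells. Neither remained when the counting intervals were required to be apart.

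**Figure D2:**
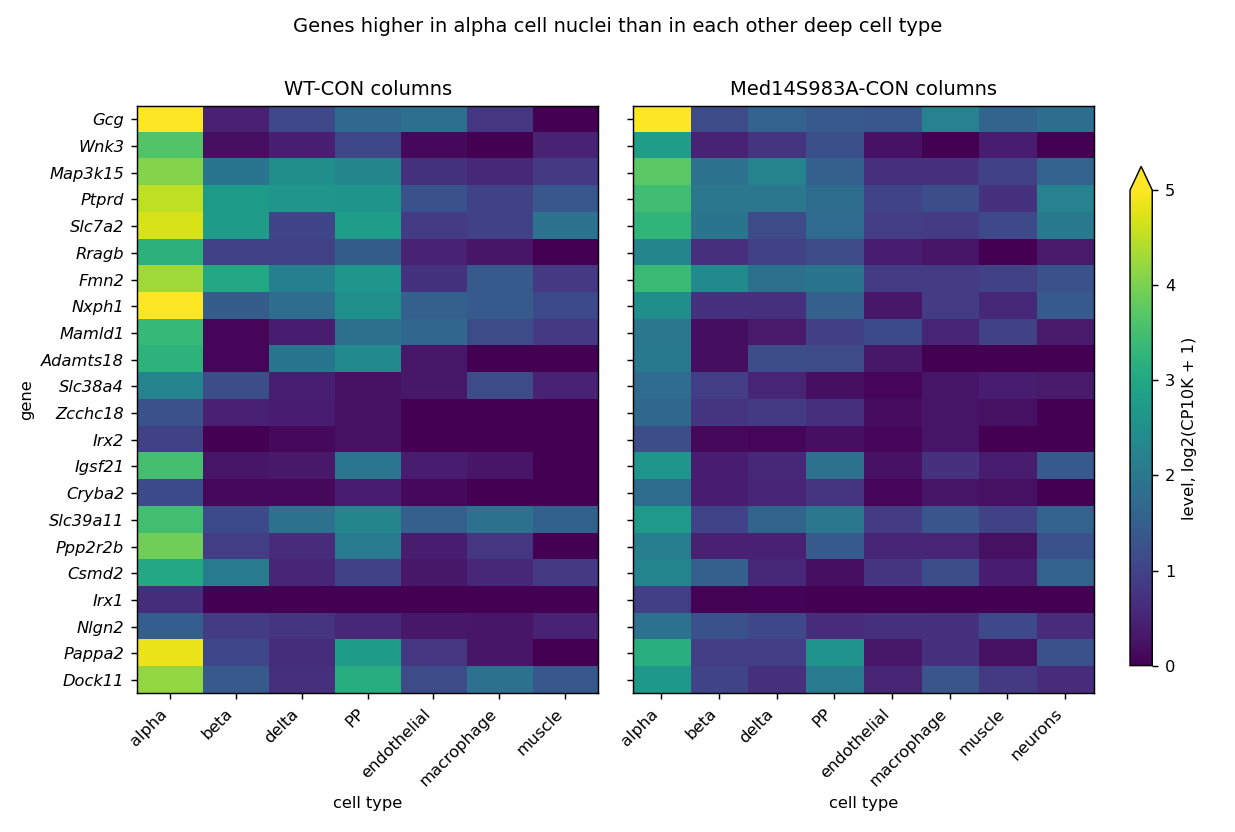
Levels, as log2(CP10K + 1), of the 22 genes (rows) that were higher in alpha cell nuclei than in each other type, in the WT-CON and Med14S983A-CON columns of cell types with 20000 counts or more. The alpha column is brightest in every row and PP is often next, as for *Dock11* at 7.72 CP10K in WT-CON, and the colour scale ends at 5, which *Gcg* in both conditions and *Nxph1* in WT-CON exceed.

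The same measure in the other conditions kept part of the set. In the FSK columns 19 of the 22 genes were above every other deep type, and in the Ex-4 columns 11. 9 genes met the limit in all 6 conditions, namely *Gcg*, *Wnk3*, *Map3k15*, *Slc7a2*, *Rragb*, *Nxph1*, *Irx2*, *Csmd2* and *Pappa2*. The FSK and Ex-4 columns were not used to choose the genes, but their nuclei were part of the clustering.

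Several other alpha cell markers were shared with PP cells. *Etv1*, an ETS factor gene, was at 12 CP10K in WT-CON and 4.0 in Med14S983A-CON alpha nuclei against 10.3 and 4.62 in PP cells, and *Gria3*, which encodes a subunit of AMPA glutamate receptors, at 13.3 and 5.70 against 12.9 and 6.65. *Smarca1*, a chromatin remodelling ATPase gene, was at 4.2 and 2.15 CP10K against 5.47 and 3.44. Of 15 further alpha cell markers, 13 were in the table and 12 entered, of which *Slc7a2* and *Mamld1* alone stood above all types. *Pou3f4* had no count in the untreated alpha columns.

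Of all genes in the columns with 20000 counts or more, *Wnk3* varied most like *Gcg*, with a Pearson correlation of 0.90 of log2(CP10K + 1) over 43 columns. *Pdk4*, the gene of a kinase that restrains pyruvate dehydrogenase, followed at 0.89, *Irx2* at 0.88, *Irx1* at 0.86 and *Tmsb15l*, a thymosin gene, at 0.85. The points share libraries and cell type and are no replicates, so this is a description. The 250 bases before the annotated transcript starts of *Gcg* (chr2:62313998-62314247, minus strand), *Wnk3* (chrX:149980824-149981073, plus strand) and *Irx2* (chr13:72776656-72776905, plus strand) are shown, from GRCm39, 5′ to 3′ on the strand of the gene, since these genes had the most similar pattern and stood above all other types. Capitals mark matches on either strand to TATAAA (the TATA box), TGACG (a part of the cAMP response element), TAATTA (a core read by paired homeodomains), TGTTTAC (a forkhead core) or TGCTGA (a part of the Maf element).
Gcg: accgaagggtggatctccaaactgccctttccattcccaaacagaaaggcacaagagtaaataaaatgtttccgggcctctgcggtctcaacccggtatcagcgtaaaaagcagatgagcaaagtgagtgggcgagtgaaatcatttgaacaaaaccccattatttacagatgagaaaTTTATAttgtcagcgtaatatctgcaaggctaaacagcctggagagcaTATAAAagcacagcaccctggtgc
Wnk3: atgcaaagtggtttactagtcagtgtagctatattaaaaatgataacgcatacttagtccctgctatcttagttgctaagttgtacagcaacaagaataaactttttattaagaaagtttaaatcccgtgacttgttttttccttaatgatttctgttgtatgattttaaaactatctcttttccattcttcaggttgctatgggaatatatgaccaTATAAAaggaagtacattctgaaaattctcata
Irx2: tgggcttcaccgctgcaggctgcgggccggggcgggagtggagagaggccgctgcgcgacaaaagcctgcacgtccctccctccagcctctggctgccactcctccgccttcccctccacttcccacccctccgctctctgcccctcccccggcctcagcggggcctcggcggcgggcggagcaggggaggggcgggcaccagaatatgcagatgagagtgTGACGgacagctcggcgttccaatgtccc
*Gcg* and *Wnk3* had TATAAA, beginning 24 and 33 bases before the start, and *Gcg* had a second match on the other strand. *Irx2* had TGACG, beginning 29 bases before the start. The region of *Irx1* (correlation 0.86), which also stood above all other types, had no match and is not shown. TATAAA was found in 2 of the 22 upstream regions (9.09%) and in 8.29% of 16529 regions of the same length, TGACG in 5 (22.7%) and 21.4%, TAATTA in 2 (9.09%, *Rragb* and *Pappa2*) and 3.56%, TGCTGA in 2 (9.09%) and 13.8%, and TGTTTAC in 0 and 2.53%. These are matches of letters in one window and nothing was measured at them.

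6 of the 22 alpha genes lie on chromosome X, namely *Dock11*, *Map3k15*, *Zcchc18*, *Wnk3*, *Rragb* and *Mamld1*, which is 27.3%. Of the 12173 genes that entered and had a position, 383 (3.15%) are on chromosome X. This was noticed after the values were seen and was not tested. Among genes higher in alpha than in beta nuclei 15 of 180 with a position (8.33%) were X-linked, and among those lower 7 of 247 (2.83%). Against delta cells these numbers were 17 of 150 (11.3%) and 4 of 236 (1.69%), and against PP cells 9 of 75 (12%) and 7 of 109 (6.42%). Of genes that set beta cells apart from all other deep types 1 of 55 was X-linked (1.82%). Of those of delta cells it was 2 of 54 (3.70%) and of those of PP cells 3 of 18 (16.7%).

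The X-linked genes are spread along the chromosome, from *Dock11* at 35152277-35340221 to *Map3k15* at 158771429-158906347 (GRCm39). *Zcchc18* at 135893897-135899398 and *Tmsb15l* at 135855737-135877618 are close neighbours, and the latter was at 2.60 CP10K in WT-CON alpha nuclei against 0.126 in beta, 0.110 in delta and 0.161 in PP nuclei. Other X-linked genes above both beta and delta nuclei included *Gria3*, *Arhgap6*, a GTPase activating protein gene, and *Sytl5*, a gene of the synaptotagmin-like family. *Arhgap6* was at 8.28 CP10K in alpha, 0.714 in beta, 0.993 in delta and 14.6 in PP nuclei of WT-CON. *Sytl5* was at 6.18 CP10K in alpha, 1.85 in beta, 2.32 in delta and 4.18 in PP nuclei. Summed over all X-linked genes, 3.24% of alpha counts in WT-CON came from chromosome X, against 2.13% in beta, 2.47% in delta and 2.90% in PP nuclei. In Med14S983A-CON the shares were 2.41%, 1.99%, 2.17% and 2.34%. In the treated columns PP nuclei had a larger share than alpha nuclei. With FSK it was 3.26% in PP against 3.20% in alpha for WT, and 3.05% against 2.92% for Med14S983A. With Ex-4 it was 2.68% in PP against 2.53% in alpha for WT, and 2.44% against 2.29% for Med14S983A.

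**Figure D3:**
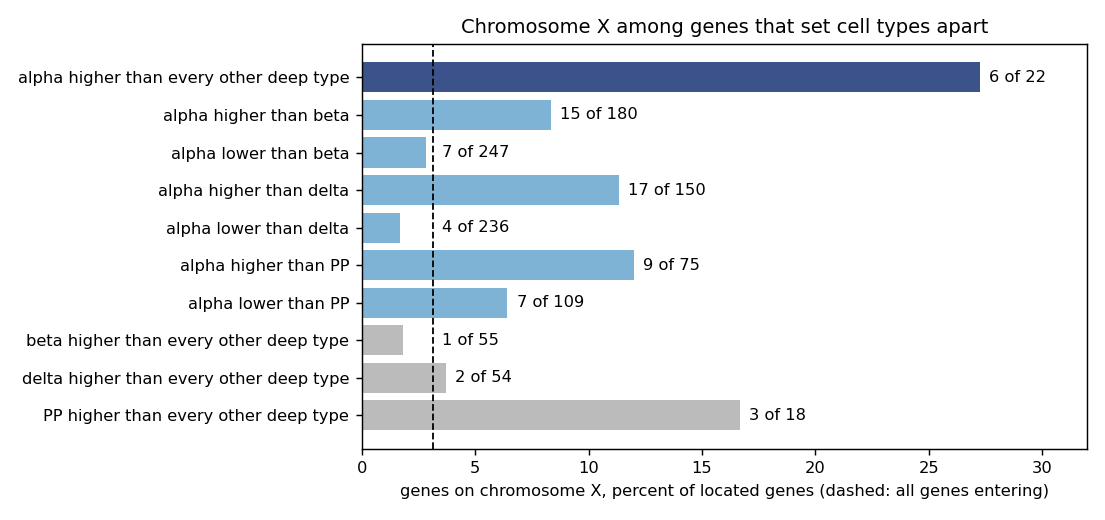
Share of genes on chromosome X (percent of genes with a position, numbers beside the bars) among genes that set alpha nuclei apart from every other deep type, from beta, delta or PP nuclei alone, and among genes that set beta, delta and PP nuclei apart. The dashed line is the 3.15% of all genes that entered. All 4 sets higher in alpha nuclei lie to the right of it. So do the PP set (16.7%), the delta set (3.70%) and the set lower in alpha than in PP nuclei (6.42%).

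Of 9487 genes kept in alpha nuclei 184 (1.94%) were higher and 516 (5.44%) lower in Med14S983A-CON than in WT-CON, and the counting intervals of each of these genes were apart. Without the ribosomal RNA linked and mitochondrial genes in the column total the numbers were 271 and 433, so that the share of calls that were higher went from 26.3% to 38.5%. The median difference of kept genes was -0.0039. The same comparison gave 7 higher (0.0738%) and 39 lower (0.411%) genes in the FSK columns, and 6 higher (0.0632%) and 5 lower (0.0527%) in the Ex-4 columns. Of the 516 genes lower without treatment, 439 were below 0 in the FSK pair and 447 in the Ex-4 pair, but 25 and 4 were past the limit. Of the 184 higher genes 124 were above 0 in the FSK pair and 115 in the Ex-4 pair, while 60 and 69 were below 0. Past the limit higher were 4 in each pair.

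The genes that set alpha nuclei apart were mostly lower in the untreated mutant. Of the 22, 15 were past the limit lower, 1 higher (*Cryba2*, 0.66) and 17 below 0, with a median of -0.89. The rule that chose them used both of these columns. In the FSK pair 3 of the 22 were past the limit lower and none higher (median -0.28), and in the Ex-4 pair none in either direction (median -0.21). Of the 5 given markers *Gcg* (-1.26) and *Ttr* (-1.32) were lower, while *Irx1* (0.28), *Irx2* (0.22) and *Gc* (-0.25) had overlapping counting intervals. Over 15 kept alpha cell markers 8 were lower and none higher, with a median of -0.72. The median of the same genes was 0.02 in beta and -0.04 in delta nuclei.

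The direction went with the length of the gene. *Irx1*, *Irx2*, *Cryba2* and *Zcchc18* (0.43) are short genes of under 12 kb, and none of them was past the limit lower. *Gcg* (9.12 kb) and *Ttr* (10.2 kb) are as short and were lower. *Nxph1* (301 kb), *Ppp2r2b* (446 kb, -1.77) and *Pappa2* (269 kb, -1.70) were the lowest of the 22. Over 9262 kept genes with a length, the Spearman correlation of length and difference was -0.51 in the untreated pair, -0.38 in the FSK and -0.15 in the Ex-4 pair. The median difference was 0.10 in the shortest of 4 equal groups of genes and -0.24 in the longest (from 84.1 kb), and the latter held 445 of the 506 lower genes with a length (87.9%) and 28 of the 181 higher ones (15.5%). With the length trend removed 222 genes were higher and 251 lower. Of the 22 alpha genes 11 in place of 15 were then past the limit lower, without *Ptprd* (-1.05 to -0.40), *Fmn2* (-0.86 to -0.52), *Slc39a11* (-0.80 to -0.42) and *Csmd2* (-0.75 to -0.32), and *Cryba2* (0.52) was no longer past it. The part of length in the difference was not tested.

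**Figure D4:**
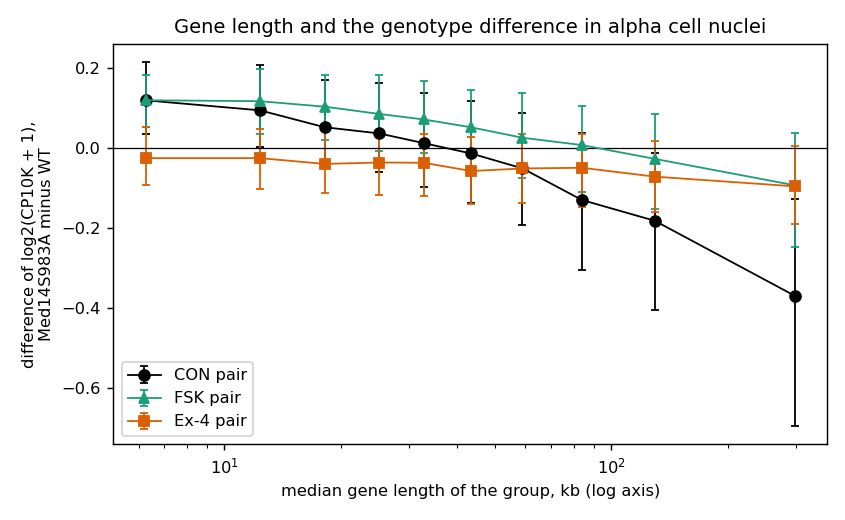
Median difference of log2(CP10K + 1), Med14S983A minus WT, of kept genes in 10 equal groups by gene length (kb, log axis) in the CON, FSK and Ex-4 pairs of alpha columns, with the middle 50% of genes as bars. The CON line falls from above 0 to well below it, and over the longest of 4 groups of genes its median is -0.24.

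*Nxph1* had the lowest difference of these genes. It was at 34.7 CP10K (32.9 to 36.5) in WT-CON, 4.65 (4.2 to 5.15) in Med14S983A-CON, 13.8 in WT-FSK, 10.4 in Med14S983A-FSK, 7.05 in WT-Ex-4 and 4.60 in Med14S983A-Ex-4, so the untreated WT column stood alone. The difference was -2.66 in the untreated pair, -0.39 in the FSK and -0.52 in the Ex-4 pair, and -0.76 in beta and -1.10 in delta nuclei without treatment. *Dpp10*, which encodes an auxiliary subunit of A-type potassium channels, went from 21.0 to 4.05 CP10K (-2.13), *Prkg1*, the cGMP dependent kinase gene, from 12 to 2.00 (-2.12) and *Nrg1*, the neuregulin gene, from 37.4 to 8.90 (-1.96). *Kctd16*, the gene of an auxiliary subunit of GABA-B receptors, went from 4.72 to 0.420 CP10K (-2.01), and its FSK columns, at 0.483 and 0.496, were as low as the mutant. *9030622O22Rik*, a long noncoding RNA gene, went from 12.4 to 2.69 CP10K (-1.86).

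For 3 of these genes the difference in beta nuclei was above 0. *Gpc6*, which encodes a glypican, went from 5.13 to 0.518 CP10K in alpha nuclei (-2.01) and was at 0.02 in beta nuclei. *Kcnj3*, which encodes a subunit of G protein gated potassium channels, went from 5.80 to 0.716 CP10K (-1.99) and was at 0.04 in beta nuclei, and *Ndst4*, which encodes an enzyme that sulfates heparan sulfate, went from 26.1 to 6.27 (-1.90 and 0.31). All 3 were low in beta nuclei, at 0.229 CP10K or less in WT-CON, so a difference of that size could not have been seen there. In delta nuclei the differences were -0.06, -0.84 and -0.99 in the same order. *Kctd16* (-0.48), *Nrg1* (-0.51) and *9030622O22Rik* (-0.37) were below 0 in beta nuclei but also short of the limit there. *Kctd16* was at 0.534 CP10K in WT-CON beta nuclei, which left little room for a fall. In delta nuclei all 3 were past the limit lower (-1.03, -1.90 and -0.86 in the same order). In PP nuclei *Kctd16* (-2.17) and *9030622O22Rik* (-1.34) were past it too, and *Nrg1* was at 0.21.

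The 10 genes with the highest difference were past the limit higher in beta and delta nuclei too. *Cdk8*, which encodes the kinase of the Mediator kinase module, was at 21.2 CP10K in WT-CON and 105.0 in Med14S983A-CON alpha nuclei (2.26), with 2.13 in beta and 2.06 in delta nuclei. Its FSK columns were at 73.0 and 54.9 CP10K (-0.41) and its Ex-4 columns at 62.6 and 87.7 (0.48), so WT-CON was the low column. *Rbm25* (5.18 to 15.8 CP10K, 1.45), *Prpf38b* (2.10 to 7.06, 1.38) and *Prpf4b* (3.34 to 9.92, 1.33) encode splicing proteins, and in the Ex-4 pair they differed by 0.32, 0.01 and 0.19. *Gphn*, which encodes the receptor scaffold gephyrin, went from 59.4 to 153.2 CP10K (1.35). *Rn18s-rs5*, an 18S ribosomal RNA related gene, went from 238.4 to 807.4 CP10K (1.76), and *Gm19951* (10.3 to 71.6, 2.68), *Cmss1* (56.7 to 173.0, 1.59), *Lars2* (53.0 to 152.0, 1.5) and *Camk1d* (11.0 to 31.3, 1.43) were on a list of genes linked to ribosomal RNA counts. Together the 6 genes of that list in the table made up 370.1 CP10K in WT-CON, 1236 in Med14S983A-CON, 449.8 and 454.8 in the FSK columns, and 1174 and 1651 in the Ex-4 columns. All 184 higher genes were above 0 in beta and in delta nuclei, 115 and 129 of them past the limit. Of the 516 genes lower in alpha nuclei, 452 were below 0 in beta and 477 in delta nuclei. Past the limit lower there were 184 and 216 of them. The beta and delta columns come from the same islets and wells.

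**Figure D5:**
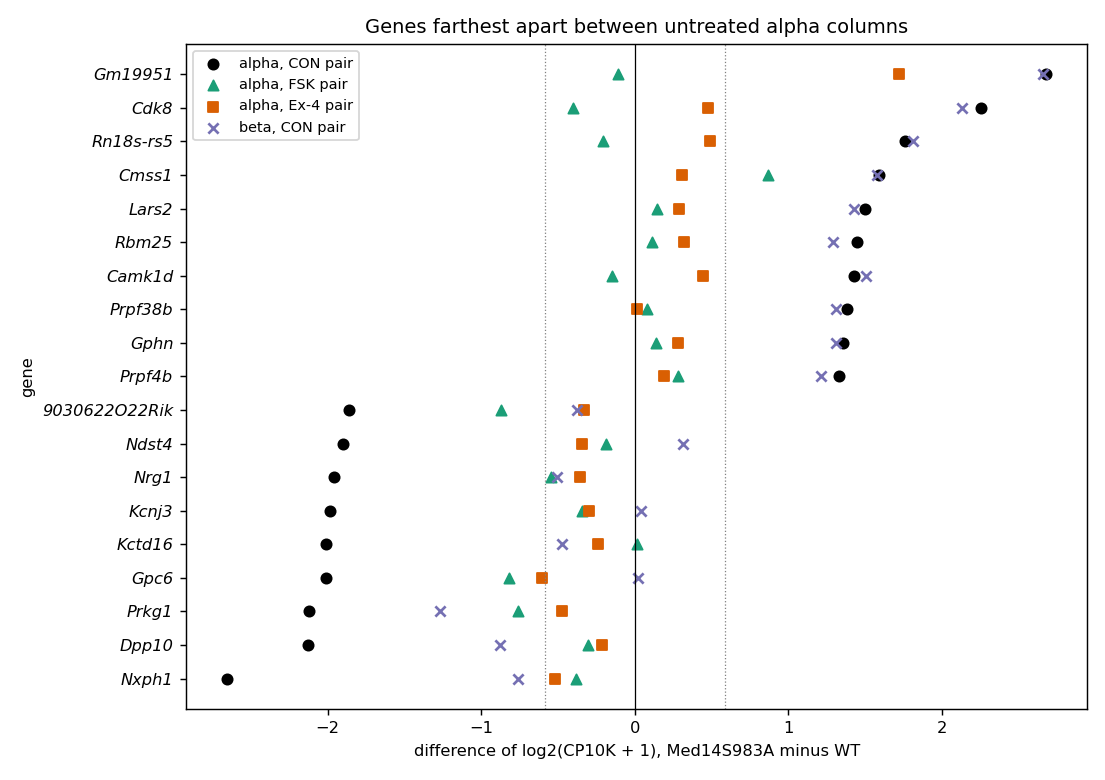
Difference of log2(CP10K + 1), Med14S983A minus WT, for 19 of the 20 genes farthest apart between untreated alpha columns, 10 higher and 9 lower, in the CON, FSK and Ex-4 pairs of alpha cells and in the CON pair of beta cells. Black circles (alpha, CON) run from -2.66 to 2.68 and the FSK and Ex-4 points lie nearer 0. Beta crosses sit by the black circles for the higher genes. For the lower genes they lie nearer 0 than the circles, and above 0 for *Gpc6*, *Kcnj3* and *Ndst4*. Dotted lines mark 1.5-fold.

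The counts of the lists that follow stand beside 1.94% higher and 5.44% lower among all kept genes (median -0.0039). Over 7 lists 31 genes were lower, and 26 of them were in the longest of the 4 groups by length. Of 15 kept genes of prohormone processing and granules 2 were higher and 4 lower in the untreated mutant (median -0.05). *Chga*, which encodes the granule protein chromogranin A, was at 3.32 CP10K in WT-CON and 9.12 in Med14S983A-CON (1.23), 3.93 and 3.07 in the FSK columns and 7.33 and 8.27 in the Ex-4 columns. *Ptprn*, the gene of the granule membrane protein IA-2, went from 1.62 to 3.76 CP10K (0.86). The lower genes were *Slc30a8*, the granule zinc transporter (29.5 to 10.7 CP10K, -1.39), *Pam*, the amidating enzyme (7.82 to 3.46, -0.99), *Pcsk2* (53.4 to 34.9, -0.60) and *Cpe*, carboxypeptidase E (4.53 to 2.67, -0.59). *Ptprn2* had the most counts of the list, at 66.8 and 45.8 CP10K (-0.54). Of 21 exocytosis genes 5 were lower and none higher (median -0.07), with *Stxbp5l*, the tomosyn-2 gene, lowest (-0.88), *Cadps* highest in counts (23.6 to 13.8 CP10K, -0.73) and *Cplx2*, a complexin gene, at 0.43.

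Of 14 kept receptor genes 4 were lower (median -0.16), beside 5.44% of all kept genes. *Grik2*, a kainate receptor subunit gene, went from 3.72 to 0.605 CP10K (-1.56), *Gria3* differed by -1.10, *Casr*, the calcium sensing receptor gene, by -0.72 and *Gria2* by -0.70. *Grik2* (694 kb), *Gria3* (278 kb) and *Gria2* (122 kb) were in the longest of the 4 groups by length. The receptor genes of incretins were not past the limit, *Gipr* at 0.42 and *Glp1r* at 0.01. Of 22 genes of excitability 4 were lower (median -0.14), and *Abcc8*, a subunit of the KATP channel, was at 21.9 CP10K in both columns. *Kcnb2*, a delayed rectifier gene, was lowest at -0.98, and *Cacna1c*, an L-type calcium channel gene, had the most counts (25.1 to 17.9 CP10K, -0.47). Of 18 genes of amino acid transport and use 3 were lower, among them *Slc7a2* (-1.42) and *Slc7a8* (-0.96), with a list median of -0.08 and *Slc7a5* at 0.23.

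Of 26 adhesion and guidance genes 10 were lower and none higher, with a median of -0.31. *Nlgn1*, a neuroligin gene, went from 10.1 to 2.18 CP10K (-1.81), and *Unc5c*, a netrin receptor gene, from 6.42 to 1.30 (-1.69). *Robo2*, a Slit receptor gene, had the most counts of the list and went from 22.2 to 7.80 (-1.40), and *Nlgn2* was at 0.39. Medians of this list were -0.56 in beta and -0.71 in delta nuclei, below that of alpha nuclei, and most of its members are long genes. Of 11 endocrine transcription factor genes 1 was lower, *Rfx3* (3.65 to 1.39 CP10K, -0.96), with a median of 0.18, and 1 of 11 is near the 5.44% of all kept genes. *Pax6*, a paired homeobox gene that activates *Gcg*, was at 3.46 and 5.65 CP10K (0.58), just short of the limit, and *Isl1*, a LIM homeobox gene, at 2.72 and 2.65 (-0.03).

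The summed level of 10 beta cell markers was 4.53 CP10K in WT-CON and 4.86 in Med14S983A-CON alpha nuclei, and ran from 3.31 to 6.65 over the 6 columns, against 48.0 and 41.0 in the untreated beta columns. Among them *Ins2* went from 1.10 to 1.75 CP10K (0.39) and *Ins1* from 0.477 to 0.876 (0.35), with overlapping counting intervals for *Ins1*. Others went the other way, among them *Slc2a2* (1.07 to 0.494 CP10K, -0.47), *G6pc2* (-0.19) and *Iapp* (-0.17). The median of the 9 kept beta markers was 0.05, and none was past the limit. The 5 delta cell markers summed to 0.260 to 0.580 CP10K and the 3 PP cell markers to 0.620 to 1.30. The 8 endothelial markers summed to 0.148 to 0.420 CP10K against 128.7 in WT-CON endothelial nuclei, and *Plvap* was at 0 in 6 of 6 alpha columns. Macrophage markers (6 of 8 in the table) summed to 0.119 CP10K or less, and mural markers (5 of 7) to 0.0509 or less. The 5 of 6 ductal markers in the table summed to 2.24 to 3.01 CP10K, of which *Pkhd1* made up 1.33 to 2.30, and *Sox9* was at 0 in all 6. The 2 of 4 glial markers in the table summed to 0.186 to 0.630, and the 1 acinar marker in the table was at 0. Their part in the results was not tested.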

How the data were processed

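The authors processed single nucleus RNA-seq of mouse islets with split-pipe against mm39 and with Seurat, removed nuclei of extreme counts, features or mitochondrial share, and assigned cell types. The annotation release, and whether the summed counts were raw, are not given in the sources used here. The deposited values are natural log values, ln(1 + CP10K). Column totals, and from them counts, were recovered as those at which each value is a whole count (100% within 0.001).

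Genes were kept for the genotype comparison when their mean over the 6 alpha columns lay at the 40th percentile or above (0.0830 CP10K), and entered the comparison of cell types when their untreated mean reached this value in alpha or a deep other type. Named were the 5 given markers, the 20 alpha genes farthest above other types at 1 CP10K or more, the 10 genes at each end of the genotype difference among kept genes of at least median level, list members at the extremes of level or difference, and the 5 genes most like *Gcg*. Others were named after their values were seen, and the values of some genes that this rule names are not reported here. Members and lists were chosen with earlier results of these data known.

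GRCm39 (GENCODE M39) gave positions for 16531 of 17362 genes. Whether counting used strand is not stated, and *Wnk3*, *Map3k15*, *Ptprd*, *Zcchc18*, *Irx2*, *Igsf21*, *Csmd2*, *Slc39a11*, *Sh3pxd2a*, *Tet3*, *Ttr*, *Prkg1*, *Cmss1*, *Rbm25*, *Gphn* and *Prpf4b* overlap an opposite strand gene of the table. Alternatives were other types, thresholds, pseudocounts, filters, scalings, a lowess length trend (span 0.3), counting intervals and other columns. The code was tested on simulated counts (Python 3.11.15, with pandas 2.3.3, numpy 2.4.6, statsmodels 0.14.6, scipy 1.17.1, matplotlib 3.10.9).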

Additional observations from a re-analysis of the deposited data

Results flagged for a closer look

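*Gcg* differed in opposite directions in alpha and beta nuclei. In the untreated mutant it was lower in alpha nuclei (-1.26) and higher in beta nuclei (0.71), where it went from 0.375 to 1.25 CP10K, both past 1.5-fold. There is 1 value for each cell type and condition, so the difference between cell types was not tested. Beside it, *Gcg* in Med14S983A-CON was at 1.25 to 3.65 CP10K in all 8 other cell types, including macrophages, endothelial and muscle nuclei, against 0 to 2.53 in WT-CON, and the alpha columns held 21.6% of the counts of Med14S983A-CON and 10.3% of those of WT-CON. Their part in the beta cell value was not tested. No other gene named or listed above had opposite directions past 1.5-fold in alpha and in beta or delta nuclei.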

How the results depend on the processing

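Each value rests on 1 column, so no replicate could be left out, and no paired analysis was possible because the columns carry no replicate number. The 22 genes higher and 2 lower in alpha nuclei became 21 and 0 against all 8 other types, 94 and 70 against beta and delta alone, 9 and 0 in all 6 conditions, 7 and 0 at 2-fold, 56 and 7 with a pseudocount of 0.1 on linear CP10K, 70 and 10 with 0.01, and 15 and 0 with counting intervals apart. In the FSK columns they were 40 and 2 and in the Ex-4 columns 15 and 2, both chosen after seeing the data. Filters and rescaling left 22 and 2. The 184 higher and 516 lower genes of the genotype comparison became 33 and 150 at 2-fold, 1827 and 1903 with a pseudocount of 0.1, 2427 and 2425 with 0.01, 222 and 251 with the length trend removed, 7 and 39 in the FSK pair and 6 and 5 in the Ex-4 pair. A small pseudocount admits genes of few counts. The median of the alpha markers (-0.72) was -0.96 to -0.60 under the other 5 alternatives and went to -0.22 in the FSK and -0.16 in the Ex-4 pair. Of the 516 lower genes 77 were above 0 in the FSK pair and 69 in the Ex-4 pair, and of the 184 higher genes 60 and 69 were below 0. Of the genes past 1.5-fold that are named above, *Kctd16* (0.013), *Gm19951* (-0.11), *Cdk8* (-0.41), *Rn18s-rs5* (-0.21), *Camk1d* (-0.15), *Chga* (-0.28), *Pam* (0.072), *Cpe* (0.22) and *Grik2* (0.089) changed sign in the FSK pair. In the Ex-4 pair *Fmn2* (0.14) and *Cpe* (0.049) did. Genes short of 1.5-fold changed sign too, among them *Nlgn2* (0.39 to -0.25) in the FSK pair and *Irx1* (0.28 to -0.51), *Irx2* (0.22 to -0.31) and *Slc38a4* (-0.49 to 0.38) in the Ex-4 pair. With the length trend removed 32 of 69 named genes with a length left their counting interval, and 10 fell short of 1.5-fold, *Pcsk2*, *Cpe*, *Stxbp5l*, *Cadps* and *Gria2* besides 5 of the alpha genes. The cause was not tested. The ductal (1522 and 13924 counts) and neuron (8995 and 35828) columns were the shallowest within each untreated condition. The WT-CON muscle column, which counted as deep, held 25695 counts.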
